A study of Mus musculus with 12 samples.

Results

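Levels of 10 named long non-coding RNAs were followed in macrophages sorted from the mouse heart before and after injury: Malat1, Neat1, Gas5, Snhg1, Snhg12, H19, Meg3, Kcnq1ot1, Dleu2 and Miat. They were taken by symbol from a table of 14460 genes, in which 8 of the 10 had a row. No row carried the symbols Kcnq1ot1 or Miat, and neither is analysed here. Tests took in the 12879 genes whose signal averaged 1 or more, and all 8 RNAs with a row were among them. By the GENCODE M21 annotation, 1062 of the 14460 rows are long non-coding.

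Long non-coding RNAs are transcribed and often spliced like messenger RNAs but act without encoding a protein, or serve as carriers of smaller RNAs. Malat1 sits in nuclear speckles, the stores of splicing factors, and Neat1 is the scaffold on which paraspeckles are built. Gas5, Snhg1 and Snhg12 carry small nucleolar RNAs (snoRNAs, guides of ribosomal RNA modification) in their introns, and their spliced remainder is degraded when translated. H19, Meg3 and Kcnq1ot1 are imprinted, meaning that the copy inherited from 1 parent is expressed, Dleu2 carries a pair of microRNAs, and Miat takes its name from an association with myocardial infarction in humans.

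All mice were Cx3cr1 GFP/+, with GFP knocked into the gene of the chemokine receptor CX3CR1, and were 2 to 3 months old. GFP-positive cells came from hearts without surgery (day 0) and from hearts taken 3, 7 and 30 days after cryoinjury, in which part of the heart is frozen as a model of myocardial infarction. Each of the 4 groups held 3 libraries, named as independent biological replicates in the labels. Cells of days 0, 7 and 30 were Ly6c-low and CX3CR1-high, whereas cells of day 3 were Ly6c-high and CX3CR1-low. In every comparison with day 3, time after injury and sorting gate cannot be told apart. The libraries are bulk RNA, so fewer cells of a type and less RNA per cell cannot be told apart either. Signal means the deposited linear normalised read count, which is not divided by gene length. Differences are given on the log2(signal + 1) scale with the SE of limma, which pools the spread of all 12 libraries, and p-values are adjusted over all 12879 genes.

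Depth ran from 5828904 to 13199576 reads per library. At these depths a count of 0 allows up to 3 reads, which is a signal of 0.190 to 0.543 by library and covers counting error only. The genes mt-Rnr1, mt-Rnr2, Gm26924 and Lars2 together took 30.4%, 43.0% and 49.3% of the reads of the day 0 libraries. They took 25.5% to 32.4% at day 3, 35.4% to 47.7% at day 7 and 25.5% to 25.9% at day 30. The macrophage genes followed the labelled gates: Cx3cr1 averaged 153 ± 6.82 signal at day 0, 38.9 ± 5.11 at day 3, 174 ± 31.2 at day 7 and 131 ± 3.78 at day 30 (SD, n = 3). Ly6c2 averaged 14.03 ± 11.01, 852 ± 205, 17.3 ± 12.7 and 2.81 ± 0.415 signal in the same order of days, and Ccr2 averaged 268 ± 69.7, 1518 ± 182, 497 ± 188 and 422 ± 3.87. Csf1r averaged 1599 ± 218, 560 ± 59.8, 1375 ± 333 and 1155 ± 44.05 signal over these days, and Emr1, the table's symbol for Adgre1, averaged 638 ± 60.3, 202 ± 69.9, 764 ± 146 and 588 ± 9.21. Markers of other cells were present. The 14 fibroblast markers summed to 628 to 2430 signal at day 7 against 54.9 to 148 at day 0, highest in day 7 replicate 2, with no marker at 0 in any day 7 library and 1 or 2 at 0 in each day 0 library. The 12 early response genes, which rise within minutes of cell stress, summed to 6299 in day 0 replicate 1 against 1896 and 2270 in the other day 0 libraries. The day 30 libraries were closely alike, as pairs of them differed with a chi-square per gene between 2.21 and 3.00, and pairs in the other groups between 6.03 and 88.0. Whether they come from separate animals is not shown by the values. In comparisons with day 30, limma calls of the long non-coding RNAs followed here are also given with its libraries averaged as 1 sample. Counts for gene lists and for long non-coding rows as a class, and calls of other single genes, are given without that averaging. How many of these would remain under it is not shown.

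Across the 4 groups, limma's F test called 7 of the 8 RNAs, all but Snhg12, at an adjusted p under 0.05. Of all genes tested, 63.9% were called. The 7 calls covered adjusted p = 1.3e-05 for Neat1 to 0.0193 for Dleu2, and Snhg12 had 0.152. Malat1, Neat1, Gas5 and Snhg1 had their highest or second highest group mean at day 3 and their lowest at day 7. H19 had its highest mean at day 7, and Dleu2 its lowest.

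**Figure D1:**
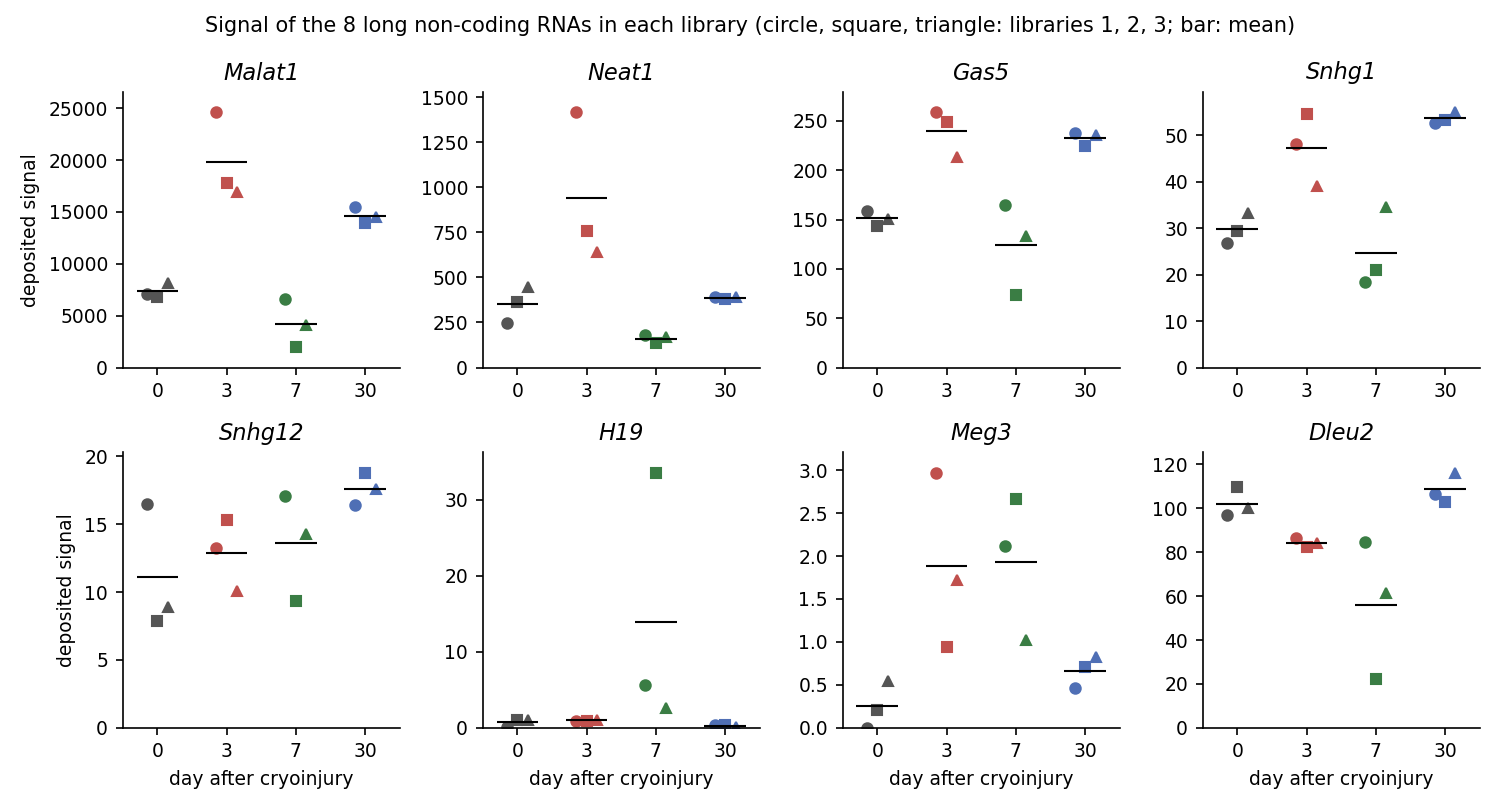
Signal (deposited linear normalised read count) of the 8 long non-coding RNAs in each library, by day after cryoinjury, with circles, squares and triangles for libraries 1, 2 and 3 and a bar at the group mean. Malat1, Neat1, Gas5 and Snhg1 have their lowest mean at day 7, where H19 reaches 33.5 signal in library 2, and day 30 libraries lie close together.

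At day 3 against day 0, limma called 5 of the 8 RNAs higher, against 22.1% of all genes, and none lower, against 22.1% of all genes (none with an unadjusted p under 0.05, and none by edgeR or DESeq2). The 5 were Malat1, Neat1, Gas5, Snhg1 and Meg3. The median difference of the 8 was 0.65 on the log2 scale, beside -0.02 over all genes tested. At day 7, compared with day 0, limma called H19 and Meg3 higher (2 of 8, against 11.4% of all genes) and Neat1 and Dleu2 lower (2 of 8, against 10.2%). Snhg1 was the RNA called higher by limma at day 30 against day 0 (1 of 8, against 3.45% of all genes), and none was called lower (against 2.73%). In that comparison edgeR called 1 of the 8 higher and DESeq2 called 3, and neither called any lower. Before adjustment 4 of the 8 had p under 0.05 there, all with a positive difference. H19 was called higher at day 7 than at day 3 (1 of 8, against 23.3%) and Malat1, Neat1, Gas5 and Snhg1 lower (4 of 8, against 23.5%). Malat1, Neat1, Gas5, Snhg1 and Dleu2 were called higher at day 30 than at day 7 (5 of 8, against 19.7%) and H19 lower (1 of 8, against 19.9%). Days 3, 7 and 30 were set against the same 3 day 0 libraries, and day 7 entered 3 comparisons, so these counts share samples. H19 passed the cut at a mean signal of 1 through day 7 (13.9), with 0.756, 0.987 and 0.266 at days 0, 3 and 30. Meg3 passed it through days 3 and 7 (1.88 and 1.93), with 0.251 at day 0 and 0.666 at day 30. Their calls as higher in those groups, and the counts that include them, are conditioned on that cut.

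Markers of other cells and mitochondrially encoded genes also moved at day 3. Of 5 tested neutrophil markers, 3 were higher and none lower at day 3 than at day 0, led by the collagenase gene Mmp8 (4.59, adjusted p = 4.52e-07), and all 5 were lower at day 7 than at day 3. The 6 neutrophil markers with a row summed to 53.2 to 102 signal at day 0, 245 to 309 at day 3, 101 to 160 at day 7 and 60.9 to 65.01 at day 30, and none was at 0 in any library of day 0 or day 3. Of 15 mitochondrially encoded genes, 13 were lower and none higher at day 3 than at day 0 (median -1.38), with mt-Nd3 at -2.51 (adjusted p = 1.82e-06), and 7 were higher and none lower at day 7 than at day 3. At day 3 against day 0, 11 of 11 tested cardiomyocyte markers, 6 of 7 T and NK cell markers and 5 of 5 mast cell markers were lower. The part of these genes in the differences of the long non-coding RNAs was not tested.

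**Figure D2:**
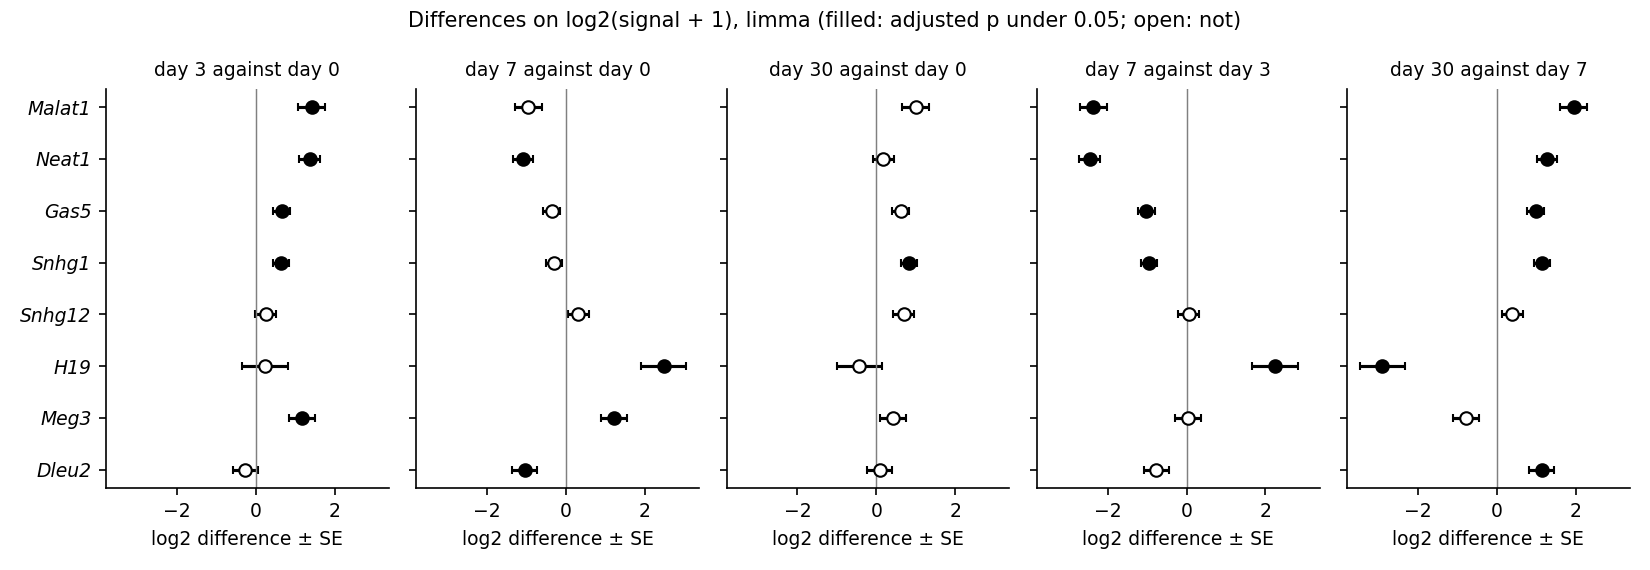
Difference on the log2(signal + 1) scale with its SE for each long non-coding RNA in the 5 comparisons (limma, n = 3 libraries each), filled where the adjusted p was under 0.05. Neat1 and Malat1 lie at -2.46 and -2.36 at day 7 against day 3, and H19 at 2.47 at day 7 against day 0.

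Per kb of exon, Malat1 had the highest mean level of the 8, at 1647 signal per kb over the 12 libraries. Gas5 followed with 49.7, Neat1 with 22.2, Snhg1 with 13.1, Dleu2 with 7.74, Snhg12 with 5.74, H19 with 1.62 and Meg3 with 0.0654 signal per kb. Exon length here is the union over all annotated transcripts. It equals the whole gene span for Snhg1 (2.969 kb) and Snhg12 (2.402 kb) and is 3.76 of 4.118 kb for Gas5, so introns with snoRNAs are counted. Neat1 was divided by 20.771 kb although its short and long forms share 1 row. The order below Malat1 depends on these lengths. Malat1 ranked 6 of all 14460 genes by mean signal and took 0.161% to 2.65% of a library's reads. H19 and Meg3 rested on few reads. H19 had 37, 290 and 18 reads at day 7 and at most 10 in any other library, and Meg3 had at most 31 reads in any library.

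**Figure D3:**
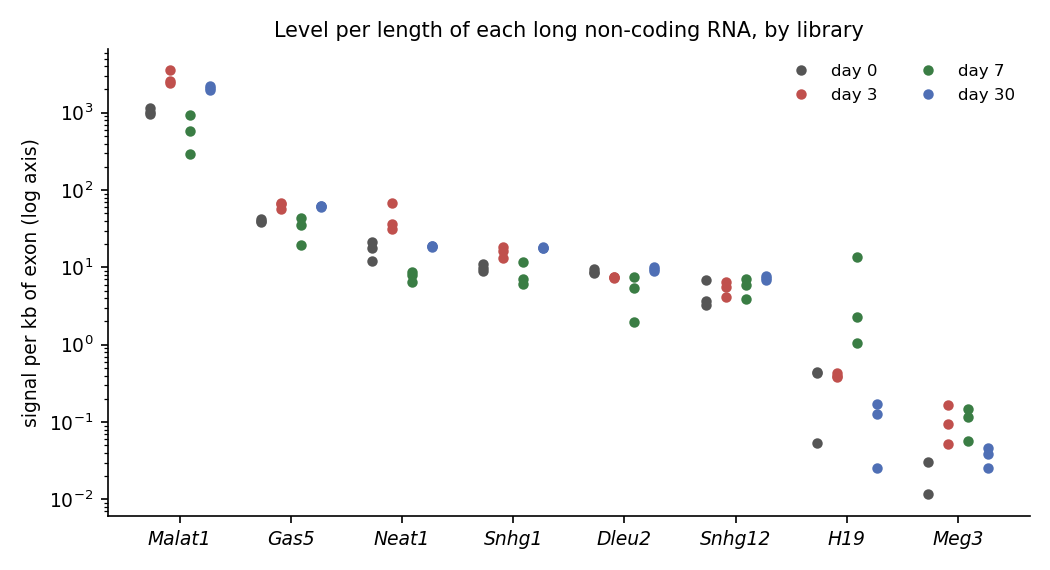
Signal per kb of exon (log axis) of each long non-coding RNA, 1 point per library, coloured by day, in order of the mean over 12 libraries; a library at 0 for Meg3 is not drawn. Malat1, at a mean of 1647 signal per kb, stands above Gas5 at 49.7 and Meg3 at 0.0654. Exon length is the union over all annotated transcripts.

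Malat1 (ENSMUSG00000092341, chr19:5795690-5802672, minus strand, GRCm38, 6983 exon bases) is the abundant nuclear RNA of splicing speckles. Its signal was 7113, 6823 and 8138 at day 0, 24591, 17832 and 16930 at day 3, 6564, 2024 and 4088 at day 7, and 15443, 13931 and 14556 at day 30. The 4 groups did not overlap: every day 3 library was above every day 30 library, then came day 0, and day 7 was lowest. Malat1 was higher at day 3 than at day 0 by 1.41 ± 0.35 (adjusted p = 0.00387), a 2.66-fold difference. It was lower at day 7 than at day 3 by 2.36 on the log2 scale (-2.36 ± 0.35, adjusted p = 6.69e-05), and higher at day 30 than at day 7 (1.95 ± 0.35, adjusted p = 0.000702). Against day 0, day 7 gave -0.95 ± 0.35 (adjusted p = 0.0606) and day 30 gave 0.996 ± 0.35 (adjusted p = 0.103), neither called although the libraries did not overlap. Without day 7 replicate 1 the day 7 difference was called (-1.35, adjusted p = 0.00861), and without day 7 replicate 2 it was -0.50 (adjusted p = 0.243). DESeq2 (adjusted p = 0.0281), quantile normalisation (0.0374), a minimum mean signal of 5 (0.0460) and the replicate block (0.0492) also gave a call at day 7. At day 30, 6 of the 25 alternatives gave a call, among them DESeq2 (0.0126), quantile normalisation (0.0162) and a fit of the compared groups alone (0.00284). The other alternatives, among them the day 30 libraries averaged, gave no call there. The day 30 difference was called without day 7 replicate 1 (adjusted p = 0.0473) or 2 (0.0157), and the call of day 30 against day 7 was lost with the day 30 libraries averaged (adjusted p = 0.0519).

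Neat1 (ENSMUSG00000092274, chr19:5824708-5845478, minus strand, 20771 exon bases) lies close to Malat1 and is the scaffold of paraspeckles. Its short and long forms share 1 row and were not separated. Neat1 signal was 248, 365 and 446 at day 0, 1417, 759 and 642 at day 3, 181, 134 and 167 at day 7, and 393, 382 and 390 at day 30. Day 3 was above all other groups, day 7 below all others, and day 30 lay within the range of day 0. Neat1 was 2.57-fold higher at day 3 than at day 0 (1.36 ± 0.26 on the log2 scale, adjusted p = 0.000509). At day 7 it was lower than at day 0 (-1.10 ± 0.26, adjusted p = 0.00737) and than at day 3 (-2.46 ± 0.26, adjusted p = 2.86e-06). At day 30 it was higher than at day 7 (1.28 ± 0.26, adjusted p = 0.00153; 0.0666 with the day 30 libraries averaged). Against day 0, day 30 gave 0.18 ± 0.26 with a 95% interval of -0.37 to 0.72 (adjusted p = 0.728). The ratio of Malat1 to Neat1 signal was 36.5 to 39.3 in the day 30 libraries and 18.3 to 28.7 in the day 0 libraries, without overlap.

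Proteins of the same nuclear bodies were read from lists. Where a list here or below has calls in 1 direction and none in the other, at most 2 of its genes had an unadjusted p under 0.05 in that other direction and edgeR or DESeq2 called at most 1. Of 16 nuclear speckle protein genes, 11 were higher and none lower at day 3 than at day 0 (median 0.56), with the splicing coactivator Srrm1 at 0.86 (adjusted p = 5.12e-05) and the U2 snRNP subunit Sf3b1 at 0.79 (adjusted p = 0.000963). Between days 7 and 3 the direction was the opposite, with 12 lower and none higher at day 7 (median -0.96), among them Luc7l3 at -1.44 (adjusted p = 0.00013) and the splicing factor Srsf2 at -1.29 (adjusted p = 7.42e-05). Relative to day 7, 11 were higher and 1 lower at day 30 (median 0.75), with Luc7l3 at 1.13 (adjusted p = 0.00157). Relative to day 0, 4 were lower and none higher at day 7, and at day 30 against day 0, 2 were higher and 1 lower. Their summed signal was 2570 to 2972 at day 0, 3926 to 4151 at day 3, 1959 to 2491 at day 7 and 3602 to 3673 at day 30. These 4 ranges did not overlap and stood in the same order of days as Malat1.

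Of 16 paraspeckle protein genes, 6 were higher and 1 lower at day 3 than at day 0 (median 0.40). The RNA-binding protein gene Ewsr1 was at 1.18 (adjusted p = 0.000109) and the chromatin remodeller Smarca4 at 1.03 (adjusted p = 0.000133). Relative to day 3, 12 were lower and none higher at day 7 (median -0.69). Day 30 had 7 higher and 1 lower than day 7 (median 0.39), led by Hnrnph3 at 1.34 (adjusted p = 0.00145). Day 7 had 1 higher and 3 lower than day 0, and at day 30 against day 0 none passed in limma. In the last of these, 2 were higher at an unadjusted p under 0.05 and none passed in edgeR or DESeq2. Medians over all genes tested lay between -0.02 and 0.04 in the 5 comparisons. Ewsr1 and the other members of both lists have roles outside these bodies, and protein was not measured.

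The snoRNA hosts Gas5 and Snhg12 are shown with the sequence around their start site because 5′ terminal oligopyrimidine (TOP) transcripts start with a C followed by pyrimidines, and the windows of Snhg1 and Malat1 are set beside them. Each window runs from 250 bases before to 50 bases after the RefSeq start site (GRCm38.p6), on the gene's strand: chr1:161034916-161035215 (plus) for Gas5, chr4:132308428-132308727 (plus) for Snhg12, chr19:8723237-8723536 (plus) for Snhg1 and chr19:5802623-5802922 (minus) for Malat1. Capitals mark every match, on either strand, to TATATA (the core of a TATA box), to CCTTTC (a C and pyrimidines, as at a TOP start) and to TGACGTCA (the full cyclic AMP response element); no marked matches overlap.
Gas5: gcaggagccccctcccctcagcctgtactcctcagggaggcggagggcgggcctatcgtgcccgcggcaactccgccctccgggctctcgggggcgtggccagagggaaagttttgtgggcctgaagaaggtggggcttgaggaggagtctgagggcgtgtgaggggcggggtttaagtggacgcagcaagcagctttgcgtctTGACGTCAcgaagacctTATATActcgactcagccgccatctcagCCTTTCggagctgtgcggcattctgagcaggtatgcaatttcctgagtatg
Snhg12: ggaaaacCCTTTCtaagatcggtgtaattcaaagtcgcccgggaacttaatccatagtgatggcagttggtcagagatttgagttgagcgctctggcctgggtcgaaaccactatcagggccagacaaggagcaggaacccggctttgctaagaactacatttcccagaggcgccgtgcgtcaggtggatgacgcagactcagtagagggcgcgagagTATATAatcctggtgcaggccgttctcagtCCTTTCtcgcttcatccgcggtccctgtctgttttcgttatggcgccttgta
Snhg1: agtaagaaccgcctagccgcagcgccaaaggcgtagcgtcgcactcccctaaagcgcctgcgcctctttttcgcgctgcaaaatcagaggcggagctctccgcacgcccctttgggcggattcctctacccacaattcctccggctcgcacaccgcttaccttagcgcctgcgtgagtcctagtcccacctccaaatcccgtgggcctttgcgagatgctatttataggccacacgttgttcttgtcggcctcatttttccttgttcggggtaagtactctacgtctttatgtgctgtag
Malat1: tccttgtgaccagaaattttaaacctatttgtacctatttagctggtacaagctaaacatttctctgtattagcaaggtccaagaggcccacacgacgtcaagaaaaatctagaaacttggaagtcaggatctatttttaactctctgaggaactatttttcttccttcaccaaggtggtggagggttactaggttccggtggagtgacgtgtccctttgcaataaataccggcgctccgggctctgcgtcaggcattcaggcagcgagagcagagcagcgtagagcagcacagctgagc
TATATA began 29 bases before the start site in Gas5 and 32 bases before it in Snhg12. CCTTTC began 1 base before the start site in Gas5 and 2 bases before it in Snhg12, and Snhg12 held it a second time 243 bases before. TGACGTCA lay 46 bases before the start site of Gas5. Neither the Snhg1 nor the Malat1 window held any of the 3. Of 32544 RefSeq windows of this length, 5.44% held TATATA, 23.8% held CCTTTC and 1.80% held TGACGTCA. CCTTTC lay on the gene's strand and wholly within 10 bases of the start site in 0.737%. It is only 1 string of a C and pyrimidines, so a window without it can still hold a TOP start. The string is the one at the Gas5 and Snhg12 starts, so its share is not a test of either RNA. Windows were found for 8 of the 10 RNAs. Those of Dleu2, Kcnq1ot1 and Miat held no match, and those of Meg3 held TATATA 27 bases, TGACGTCA 57 bases and, in a second window, CCTTTC 103 bases before the start site. A match is a string of letters and not a site of binding.

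Gas5 (ENSMUSG00000053332, chr1:161034422-161038539, plus strand, 3760 exon bases) contains 10 annotated snoRNA genes and accumulates when cells stop growing. Its signal was 159, 144 and 151 at day 0, 259, 249 and 213 at day 3, 165, 73.4 and 133 at day 7, and 237, 225 and 236 at day 30. Days 3 and 30 shared a range that lay above both day 0 and day 7, and day 7 spread across day 0. Gas5 was 1.58-fold higher at day 3 than at day 0 (0.66 ± 0.22 on the log2 scale, adjusted p = 0.0216), lower at day 7 than at day 3 (-1.02 ± 0.22, adjusted p = 0.00135) and higher at day 30 than at day 7 (0.98 ± 0.22, adjusted p = 0.00281; 0.0913 with the day 30 libraries averaged). Against day 0, day 7 gave -0.36 ± 0.22 (adjusted p = 0.244) and day 30 gave 0.62 ± 0.22 (adjusted p = 0.104). The day 3 call was lost under quantile normalisation (0.22, adjusted p = 0.453) and without day 0 replicate 2 (0.0662) or 3 (0.0542) or day 3 replicate 1 (0.0632) or 2 (0.0632). A call against day 0 appeared at day 7 without day 7 replicate 1 (-0.61, adjusted p = 0.0400) and at day 30 without day 7 replicate 2 (adjusted p = 0.00275). DESeq2 (adjusted p = 0.0494) and a fit of the compared groups alone (0.00122) also called Gas5 at day 30 against day 0. In all, 4 of the 25 alternatives called it there, and the day 30 libraries averaged did not. Gas5 overlaps Zbtb37 on the other strand, and since read strand is not given in the sources used here, their reads cannot be told apart in the overlap. Zbtb37 had 4.05 to 15.0 signal in the 12 libraries and was lower at day 3 than at day 0 (-0.80 ± 0.27, adjusted p = 0.0240).

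Snhg1 (ENSMUSG00000097188 in the table, chr19:8723475-8726443 by its symbol in GENCODE M21, plus strand, 2969 exon bases) contains 8 annotated snoRNA genes. Its signal was 26.9, 29.4 and 33.3 at day 0, 48.2, 54.7 and 39.0 at day 3, 18.3, 21.04 and 34.5 at day 7, and 52.6, 53.4 and 55.0 at day 30. Days 3 and 30 overlapped each other and lay above both other groups, while day 7 replicate 3 was above every day 0 library. Snhg1 was higher at day 3 than at day 0 (0.64 ± 0.20, adjusted p = 0.0193), lower at day 7 than at day 3 (-0.95 ± 0.20, adjusted p = 0.0015) and higher at day 30 than at day 7 (1.15 ± 0.20, adjusted p = 0.000717; 0.0537 with the day 30 libraries averaged). In the main limma fit it was the only one of the 8 called at day 30 against day 0 (0.83 ± 0.20, 1.78-fold, adjusted p = 0.0263). That call was lost without any 1 of the 3 day 30 or the 3 day 0 libraries (adjusted p = 0.0516 to 0.111) and with the day 30 libraries averaged (0.641). The day 3 call was lost under quantile normalisation (adjusted p = 0.114) and without day 0 replicate 1 (0.0594) or 2 (0.0515) or day 3 replicate 2 (0.0872). Day 7 against day 0 gave -0.32 ± 0.20 (adjusted p = 0.285), or -0.58 (adjusted p = 0.0268) without day 7 replicate 3. The gene beside Snhg1, the amino acid transporter subunit Slc3a2, was higher at day 3 than at day 0 (1.19 ± 0.16, adjusted p = 2.96e-05) and gave 0.29 ± 0.16 at day 30 against day 0 (adjusted p = 0.311).

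Snhg12 (ENSMUSG00000086290, chr4:132308623-132311024, plus strand, 2402 exon bases), with 5 annotated snoRNA genes, passed in none of the 5 limma comparisons. Its signal was 16.5, 7.86 and 8.87 at day 0, 13.2, 15.3 and 10.1 at day 3, 17.1, 9.36 and 14.3 at day 7, and 16.5, 18.8 and 17.6 at day 30. The 3 later groups all overlapped day 0, in which replicate 1 reached the lowest day 30 level. Day 30 against day 0 gave 0.69 ± 0.27 (adjusted p = 0.139), and 0.99 (adjusted p = 0.0264) without day 0 replicate 1. Day 3 gave 0.25 ± 0.27 (95% interval -0.32 to 0.82, adjusted p = 0.472) and day 7 gave 0.30 ± 0.27 (-0.26 to 0.87, adjusted p = 0.441) against day 0. Day 7 against day 3 gave 0.05 ± 0.27 (-0.51 to 0.62, adjusted p = 0.886), against -1.02 for Gas5 and -0.95 for Snhg1 in the same comparison; the difference between these RNAs was not tested. Without both day 0 replicate 1 and day 7 replicate 2, Snhg12 was called at day 3 (0.55, adjusted p = 0.0246), day 7 (0.83, adjusted p = 0.0132) and day 30 (0.99, adjusted p = 0.0026) against day 0. These are its highest day 0 and its lowest day 7 library, so leaving them out by itself widens the differences from day 0. The ratio of Gas5 to Snhg12 signal was 9.63 to 18.3 at day 0, 16.2 to 21.2 at day 3, 7.84 to 9.64 at day 7 and 11.96 to 14.4 at day 30.

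Protein-coding messengers of the TOP class passed in the direction opposite to the calls of Gas5 and Snhg1 at day 3 against day 0, at day 7 against day 3 and at day 30 against day 7. The list held 28 such genes, among them elongation factors, initiation factor subunits and ribosomal proteins, and 27 were measured. Of these 27, 9 were lower and none higher at day 3 than at day 0 (median -0.25). The ribosomal protein gene Rpl13a was at -0.90 (adjusted p = 0.00135) and the initiation factor Eif4b at -0.85 (adjusted p = 0.000487). Day 7 against day 3 gave 18 higher and none lower (median 0.74), among them Rpl13a at 1.33 (adjusted p = 5.51e-05) and Rpl32 at 1.29 (adjusted p = 2.54e-05). Day 30 against day 7 gave 19 lower and none higher (median -0.83), with Rpl13a at -1.68 (adjusted p = 3.6e-05) and the elongation factor Eef2 at -1.44 (adjusted p = 0.000395). Against day 0, 7 were higher at day 7 (median 0.41), with Fau at 0.93 (adjusted p = 0.00435), and 7 were lower at day 30 (median -0.42). Their summed signal was 9959 to 10243 at day 0, 7646 to 9185 at day 3, 10850 to 14154 at day 7 and 7457 to 7540 at day 30.

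Of 12 genes for nonsense-mediated decay, the surveillance pathway that removes spliced Gas5, 6 were higher and none lower at day 3 than at day 0 (median 0.56). Compared with day 3, 5 were lower and none higher at day 7, led by Upf2 at -1.32 (adjusted p = 0.000114), and at day 30 against day 7, 5 were higher and 3 lower. At day 7 against day 0, 1 was higher and 1 lower, and none passed in limma, edgeR or DESeq2 at day 30 against day 0, where 3 were higher at an unadjusted p under 0.05. Of 10 genes for snoRNA-protein particles, 1 was higher (Nufip1, an assembly factor, 1.46, adjusted p = 0.000804) and 2 lower (Nop10 at -1.06, adjusted p = 0.000269) at day 3 against day 0. Day 30 against day 7 had 2 higher, Dkc1 at 1.16 (adjusted p = 0.000872) and Nop58 at 0.85 (adjusted p = 0.0120), and 2 lower. Their summed signal was alike in all groups, 190 to 224 at day 0 and 191 to 207 at day 30. Of 18 other snoRNA host genes listed, 7 had a row; 2 of these were higher at day 30 than at day 7, among them Snhg5 (0.93, adjusted p = 0.00585), and none lower.

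**Figure D4:**
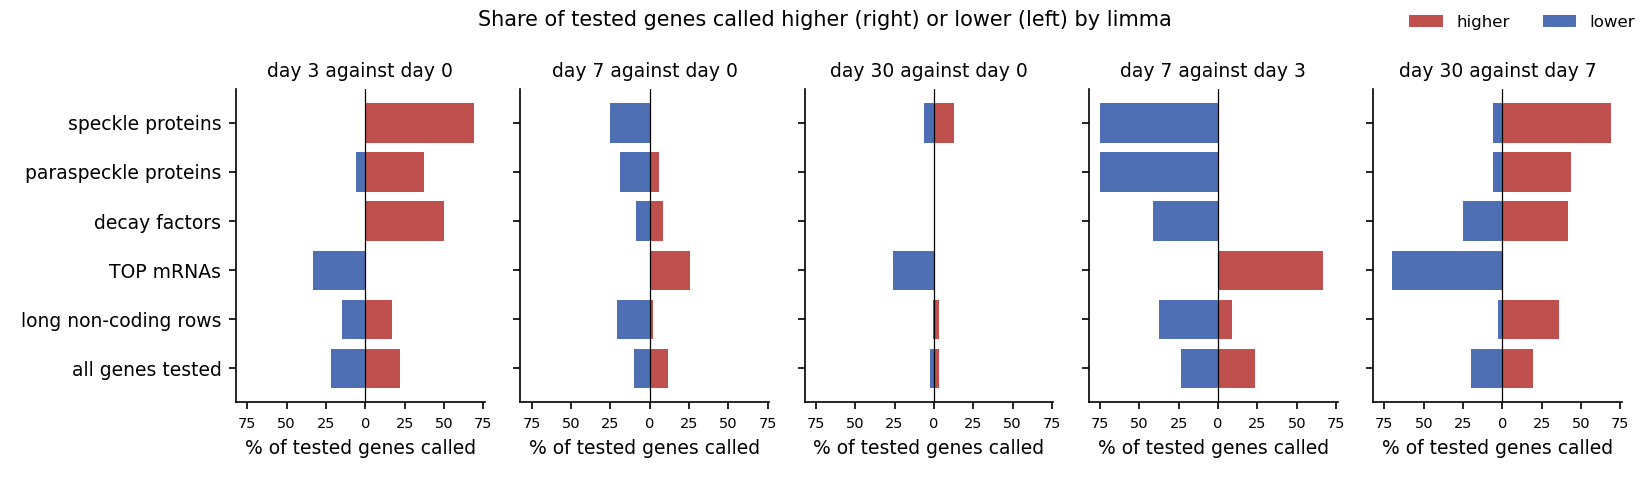
Share of tested genes called higher (right, red) or lower (left, blue) by limma in each comparison, for 16 speckle protein genes, 16 paraspeckle protein genes, 12 decay factors, 27 TOP messengers, 728 tested rows annotated as long non-coding and all 12879 genes tested. At day 7 against day 3, 12 of 16 speckle protein genes are lower and 18 of 27 TOP messengers higher.

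H19 (ENSMUSG00000000031, chr7:142575529-142578143, minus strand, 2460 exon bases) is an imprinted RNA, abundant in fetal tissue and normally silenced after birth outside muscle. It is also the precursor of miR-675, printed here from RefSeq (GRCm38.p6) with the seed, bases 2 to 8, in capitals (chr7:142577112-142577133 and chr7:142577078-142577099, minus strand). Neither microRNA was measured in these libraries.
mmu-miR-675-5p: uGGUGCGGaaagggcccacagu
mmu-miR-675-3p: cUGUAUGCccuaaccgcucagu
H19 signal was 0.132, 1.05 and 1.09 at day 0, 0.958, 0.944 and 1.06 at day 3, 5.60, 33.5 and 2.63 at day 7, and 0.312, 0.424 and 0.0634 at day 30. All 3 day 7 libraries were above all 9 others, which held at most 10 reads each. H19 was higher at day 7 than at day 0 (2.47 ± 0.57, adjusted p = 0.00701) and than at day 3 (2.24 ± 0.57, adjusted p = 0.00496), and lower at day 30 than at day 7 (-2.90 ± 0.57, adjusted p = 0.00136; 0.0574 with the day 30 libraries averaged). The other libraries are so low that the size depends on the pseudocount: the 24 alternatives gave 1.24 to 4.22 for day 7 against day 0, and all were called. All but the fit without a filter used the genes kept by the cut at a mean signal of 1, which H19 passed through day 7. Without day 7 replicate 2 the difference was 1.53 (adjusted p = 0.00788). Day 3 against day 0 gave 0.23 ± 0.57 (adjusted p = 0.767) and day 30 against day 0 gave -0.43 ± 0.57 (adjusted p = 0.705), at levels near the floor.

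Fibroblast markers stood beside H19 in the day 7 libraries. Their summed signal was 871, 2430 and 628 in day 7 replicates 1, 2 and 3, in which H19 had 5.60, 33.5 and 2.63 signal, so both ranked these libraries alike. Of 14 fibroblast markers, 11 were higher and none lower at day 7 than at day 0, led by the collagen genes Col1a1 (5.48, adjusted p = 7.72e-06) and Col1a2 (4.89, adjusted p = 6.63e-06). Mural cell markers summed to 70.7, 161 and 54.8 in day 7 replicates 1, 2 and 3, the same rank order, against 44.3 to 145 at day 0. Cardiomyocyte markers summed to 86.9, 221 and 113 in these replicates, against 86.7 to 413 at day 0. Endothelial markers summed to 84.6, 183 and 109, against 29.3 to 223 at day 0. The cardiomyocyte and endothelial sums were thus also highest in replicate 2. At day 3 the fibroblast sum was 318 to 432, above the 54.9 to 148 of day 0, while H19 had 0.944 to 1.06 signal. At day 30 the fibroblast sum was 198 to 208 with H19 at 0.0634 to 0.424 signal. The part of RNA from fibroblasts or these other cells in the H19 difference was not tested.

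**Figure D5:**
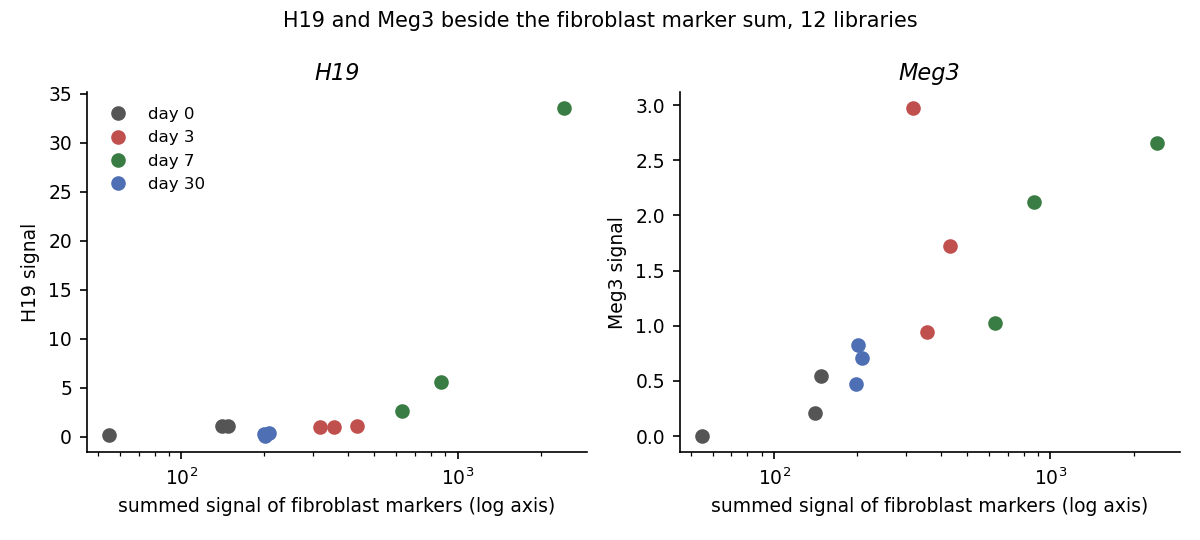
H19 signal (left) and Meg3 signal (right) against the summed signal of 14 fibroblast markers (log axis) in the 12 libraries, coloured by day. Day 7 replicate 2, at a sum of 2430, has the highest H19 signal of 33.5, and Meg3 is highest at 2.97 in a day 3 library.

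Meg3 (ENSMUSG00000021268, chr12:109541001-109571726, plus strand, 18089 exon bases) is expressed from the maternal copy of its locus. Its signal was 0, 0.210 and 0.543 at day 0, 2.97, 0.944 and 1.72 at day 3, 2.12, 2.66 and 1.02 at day 7, and 0.468, 0.707 and 0.824 at day 30. Days 3 and 7 shared a range above that of days 0 and 30. Meg3 was higher at day 3 (1.16 ± 0.33, adjusted p = 0.00926) and at day 7 (1.21 ± 0.33, adjusted p = 0.0170) than at day 0, and gave 0.43 ± 0.33 at day 30 (adjusted p = 0.465). The day 3 difference was called in all 24 alternatives, at 0.38 to 3.05. All but the fit without a filter used the genes kept by the cut at a mean signal of 1, which Meg3 passed through days 3 and 7. The day 7 call was lost without day 0 replicate 1 (adjusted p = 0.0552) or day 7 replicate 2 (0.0590), and with only the compared groups fitted (0.0632). Day 7 against day 3 gave 0.05 ± 0.33 (adjusted p = 0.921), and day 30 against day 7 gave -0.78 ± 0.33 (adjusted p = 0.0699) without overlap, or -1.03 (0.0289) without day 7 replicate 3. Days 3 and 7 were also the groups with the highest fibroblast sums, 318 to 432 and 628 to 2430, and their part in the Meg3 differences was not tested. Rian, the next non-coding RNA of the Meg3 locus, averaged 2.52 ± 1.99 signal at day 0, 3.13 ± 0.469 at day 3, 4.66 ± 1.02 at day 7 and 1.28 ± 0.305 at day 30 (SD, n = 3), and was lower at day 30 than at day 7 (-1.31 ± 0.37, adjusted p = 0.0116).

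Igf2, the growth factor gene beside H19, averaged 4.63 ± 3.38 signal at day 0, 0.557 ± 0.255 at day 3, 3.59 ± 0.487 at day 7 and 0.82 ± 0.383 at day 30 (SD, n = 3). Like H19 it was higher at day 7 than at day 3 (1.57 ± 0.44, adjusted p = 0.00871) and lower at day 30 than at day 7 (-1.35 ± 0.44, adjusted p = 0.0242). Against day 0, where the 3 libraries ranged from 0.792 to 7.13, day 7 gave -0.03 ± 0.44 (95% interval -0.96 to 0.90, adjusted p = 0.969) and day 3 was lower (-1.60 ± 0.44, adjusted p = 0.00787). Of 19 listed neighbours of the H19, Meg3 and Kcnq1ot1 loci, 9 were tested. At day 3 against day 0, 6 were lower and none higher, led by the tetraspanin gene Cd81 (-5.74, adjusted p = 6.23e-12), and at day 7 against day 3, 6 were higher and none lower. Days 7 and 30 each had 2 lower and none higher than day 0, and at day 30 against day 7, 1 was higher and 3 lower. Kcnq1, which Kcnq1ot1 overlaps on the other strand, had 0 to 1.62 signal in the 12 libraries. Of 11 tested genes of a network of imprinted growth genes, 2 were higher and 6 lower at day 3 than at day 0, where Igf2r, the receptor that clears the Igf2 protein, was at 3.93 (adjusted p = 1.52e-07) and Peg10 at -4.12 (adjusted p = 8.39e-09). Day 7 against day 0 had 2 higher, with Igf2r at 4.18 (adjusted p = 8.67e-07), and 3 lower, with Peg10 at -3.11 (adjusted p = 1.94e-06).

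Dleu2 (ENSMUSG00000097589, chr14:61602839-61682373, minus strand, 11334 exon bases) is the host transcript of miR-15a and miR-16-1, which hold back the cell cycle. Their mature forms share 1 seed, shown in capitals (bases 2 to 8, RefSeq GRCm38.p6, chr14:61632075-61632096 and chr14:61631936-61631957, minus strand), and were not measured in these libraries.
mmu-miR-15a-5p: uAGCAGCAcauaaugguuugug
mmu-miR-16-5p: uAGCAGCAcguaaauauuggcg
Dleu2 signal was 96.7, 110 and 100 at day 0, 86.4, 82.3 and 84.2 at day 3, 84.5, 22.3 and 61.3 at day 7, and 107, 103 and 116 at day 30. Day 30 overlapped day 0, day 3 lay below both, and day 7 reached from the level of day 3 down to 22.3 in replicate 2. Dleu2 was lower at day 7 than at day 0 (-1.05 ± 0.31, adjusted p = 0.0281) and higher at day 30 than at day 7 (1.13 ± 0.31, adjusted p = 0.0110). Without day 7 replicate 2 these were -0.50 (adjusted p = 0.0226) and 0.58 (adjusted p = 0.00523). The first call was lost without day 0 replicate 2 (adjusted p = 0.0823) or 3 (0.0670), in a fit of the compared groups alone (0.106), in the edgeR test on recovered reads (0.0570) and with the day 30 libraries averaged (0.0544). The second was lost in a fit of the compared groups alone (0.0540) and with those libraries averaged (0.154). Day 3 against day 0 gave -0.27 ± 0.31 (95% interval -0.94 to 0.40, adjusted p = 0.507) without overlap. Day 7 against day 3 gave -0.77 ± 0.31 (adjusted p = 0.0551), called without day 7 replicate 1 (-1.16, 0.00438) or 3 (-0.93, 0.0446).

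Several rows lie inside the span of Dleu2 or partly overlap it, and without read strand their reads cannot be separated from it where exons overlap. The RING finger gene Trim13, on the other strand, was lower at day 7 than at day 0 (-1.28 ± 0.33, adjusted p = 0.0141) and higher at day 30 than at day 7 (1.02 ± 0.33, adjusted p = 0.0246), as was Kcnrg, also on the other strand (-1.69 ± 0.35, adjusted p = 0.0035, and 1.15 ± 0.35, adjusted p = 0.0186). The long non-coding row Gm27010, on the strand of Dleu2, had 2.27, 0.694 and 2.63 signal at day 7, against 9.50, 5.45 and 6.16 at day 0. The lowest library of Dleu2, day 7 replicate 2, had 0.231 Trim13 signal, under that library's 3-read floor of 0.347. Kcnrg had 0.303, 0.347 and 0.730 signal at day 7, where the floors were 0.454, 0.347 and 0.438, so its calls rest on levels near the floor. Of 20 tested genes beside Malat1, Neat1, Dleu2, Miat, Gas5, Snhg1 and Snhg12, 3 were higher and 3 lower at day 3 than at day 0, and 2 were higher and 5 lower at day 30 than at day 7. None passed in limma, edgeR or DESeq2 at day 30 against day 0, with 4 lower at an unadjusted p under 0.05, and at day 7 against day 0, 2 were higher and 2 lower. The cell cycle genes were lower at day 3 than at day 0 in 10 of 12 and higher in none, and 0 of 12 passed in limma, edgeR or DESeq2 at day 7 against day 0, where 3 were higher at an unadjusted p under 0.05.

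Day 7 replicate 2 had the lowest signal of its group in Malat1, Neat1, Gas5, Snhg12 and Dleu2 and the highest in H19 and Meg3. In that library mt-Rnr1, mt-Rnr2, Gm26924 and Lars2 took 47.7% of the reads, against 35.4% and 40.3% in day 7 replicates 1 and 3. The part of this share in the differences was not tested. The deviations of the RNAs from their group means went together over the 12 libraries for Malat1 with Gas5 (Pearson r = 0.952) and with Dleu2 (r = 0.914), and oppositely for Gas5 with H19 (r = -0.834). Malat1 with Snhg1 gave r = -0.01. These r describe 12 libraries that share depth, scaling and replicate 2 of day 7. Over all libraries, the genes with the pattern most like Malat1 were the splicing factor Rbm25 (r = 0.990), Sltm (r = 0.989) and Setd5 (r = 0.989). Neat1 was nearest to Cdk14 (r = 0.978), Mapk8ip3 and Vps13d (r = 0.955 each), and Gas5 to Trip11 (r = 0.992), Setd2 and Tpr (r = 0.982 each). For Snhg1 they were Zfp654 (r = 0.942), Gcc2 (r = 0.941) and Best1 (r = 0.936), for Snhg12 Ccdc6 (r = 0.944), Nkap (r = 0.871) and Ddi2 (r = 0.845), and for Dleu2 Mier1 (r = 0.977), Zfp451 and Vezt (r = 0.971 each). Each was picked as the highest of 7020 genes that averaged 10 or more in signal.

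Long non-coding rows as a class can be set beside the 8. Of 728 tested rows annotated as long non-coding, which include 7 of the 8, 122 (16.8%) were higher and 108 (14.8%) lower at day 3 than at day 0, with a median of 0.00. For day 7 against day 0, 18 (2.47%) were higher and 149 (20.5%) lower, with a median of -0.48. For day 7 against day 3, 62 (8.52%) were higher and 272 (37.4%) lower (median -0.46), and at day 30 against day 7, 263 (36.1%) were higher and 22 (3.02%) lower (median 0.60). For day 30 against day 0, 24 (3.30%) were higher and 4 (0.549%) lower (median 0.13). Of 16 tested among 32 other named long non-coding RNAs, 2 were higher and 4 lower at day 3 than at day 0, led by the microRNA host Mir22hg (2.02, adjusted p = 7.95e-05), and 7 were higher and 4 lower at day 30 than at day 7. The summed signal of 12 early response genes was 1896 to 6299 at day 0, 4860 to 7022 at day 3, 1738 to 2180 at day 7 and 7156 to 7338 at day 30. Day 0 overlapped day 3, through its replicate 1, and the part of these genes in the differences was not tested. Day 0 replicate 1, with the sum of 6299, had 7113 Malat1, 248 Neat1 and 159 Gas5 signal, of which Neat1 was the lowest of its group and Gas5 the highest. Long genes moved in part with the class: the 2210 tested genes with over 8000 exon bases had a median of -0.15 at day 7 against day 3 and 0.33 at day 30 against day 7. With the trend on exon length removed, an alternative chosen after seeing the data, every member call of the 5 comparisons remained and Meg3 was also called at day 30 against day 7 (-1.12, adjusted p = 0.0136).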

How the data were processed

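RNA was sequenced from sorted heart macrophages in 12 libraries, 3 per group. Per the submitters' processing notes the tools were cutadapt 1.3, RSEM 1.2.20 and edgeR 3.14.0 with the build GRCm38; the annotation, read strand and poly(A) selection are not given in the sources used here. The authors deposited a linear normalised signal per gene, and 12 further value columns of the table were not used. In every library 100% of the values were whole multiples of 1 step within 0.02 reads, so reads were recovered by division.

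Log2(signal + 1) was fitted with limma 3.58.1 in R 4.3.3 (trend in the variance prior, 4 group means, 8 residual degrees of freedom) over the 12879 genes that averaged a signal of 1 or more. Tests were two-sided, with Benjamini-Hochberg adjustment within a comparison and a threshold of 0.05. The p-values measure the spread between the labelled replicates. Alternatives were pseudocounts of 0.1 and 5, other filters, median centring, quantile normalisation, the replicate number as a block, a fit of the compared groups alone, edgeR 4.0.16 quasi-likelihood and DESeq2 1.42.0 on recovered reads, leaving out libraries, averaging the day 30 libraries and, chosen after seeing the data, removing a trend on exon length (known for 98.7% of the genes tested). Taking the 5 comparisons as in the text, the numbers of genes called on recovered reads were 5608, 2591, 758, 5986 and 5024 with edgeR, against 5841, 3083, 1328, 6190 and 5392 with DESeq2. The limma test was also run on simulated data that gave every gene the same spread. That is unlike the spread of these libraries, and no result here rests on that run.

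Exon lengths and positions come from GENCODE M21 (GRCm38), which held 14232 of the 14460 identifiers, and sequences from RefSeq. The members and lists were chosen with earlier results of these data known. Of each list, at most 2 genes per comparison were named, those with the largest difference among genes that passed and averaged a signal of 10 or more, and neighbours of a member's locus were named beside it. Values of some single genes in these lists are not reported here.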

Additional observations from a re-analysis of the deposited data

How the results depend on the processing

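The log2 differences of the 8 RNAs were recomputed under each alternative, giving 990 values, of which 930 kept their direction and side of the threshold, 28 came to pass and 32 no longer passed; 19 had the other sign, and none of these was a call. For the cause of each change below, the cause was not tested. Members called at day 3 against day 0 numbered 3 in place of 5 under quantile normalisation, and 3 to 5 with 1 library left out (3 without day 0 replicate 2 or day 3 replicate 2). Genes called in that comparison ranged from 4646 to 6750 with 1 library left out. At day 7 against day 0, a fit of the compared groups alone called 1158 genes and 2 members, in place of 2782 and 4, and averaging the day 30 libraries gave 1741 genes. Leaving out 1 library gave 1867 to 3335 genes and 3 to 6 members there. At day 30 against day 0, where 796 genes and 1 member were called, quantile normalisation gave 2 members, the compared groups alone 2674 genes and 3 members, DESeq2 1328 genes and 3 members, and leaving out day 0 replicate 1 with day 7 replicate 2 gave 2513 genes and 4 members. Averaging the day 30 libraries as 1 sample left 13 genes and 0 members there, with the lone sample taken to vary like the other groups, and 824 genes and 0 members at day 30 against day 7, in place of 5103 and 6. Leaving out 1 library gave 235 to 1990 genes and 0 to 3 members at day 30 against day 0 (0 members without day 0 replicate 2 or 3 or any day 30 library, 2 without day 7 replicate 1, 3 without day 7 replicate 2). The same gave 3474 to 5502 genes and 6 to 7 members at day 30 against day 7. The largest shift of the median of all genes under another scaling was 0.0901 on the log2 scale, by median centring at day 30 against day 7.

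Replicate numbers did not pair the libraries: deviations of same-numbered libraries correlated at a median r of 0.0049 (-0.0831 to 0.2097, 18 pairs) and of others at -0.0069 (36 pairs). With the replicate block, 5725, 2850, 835, 6040 and 5144 genes were called in the 5 comparisons, with 5, 5, 1, 6 and 6 members; Malat1 passed at day 7 against day 0 (adjusted p = 0.0492) and Dleu2 at day 7 against day 3 (adjusted p = 0.0435). Depth limits H19 and Meg3 most, with 396 and 125 reads over all 12 libraries.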

Other observations

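A row without a symbol that lies inside Malat1 on its strand (Gm27694 in GENCODE M21, a small RNA, chosen after its values were seen) had 7.13, 5.24 and 3.98 signal at day 0, 5.46, 3.42 and 4.50 at day 3, 0, 0.231 and 7.16 at day 7, and 11.8, 16.0 and 16.5 at day 30. Its day 30 libraries were above all others, unlike those of Malat1, which were below every day 3 library, and day 7 replicate 3 stood apart from the other day 7 libraries. The row lies wholly within the Malat1 exon, so its reads cannot be separated from those of Malat1. Its day 7 values of 0 and 0.231 are under the floor of those libraries.

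Within the span of Dleu2, the long non-coding row Gm26916, on the other strand, had 2.11, 2.62 and 1.45 signal at day 0, 0.454, 0.116 and 1.31 at day 7, and 3.35, 3.39 and 2.98 at day 30. Gm27017, also on the other strand, had 1.67, 1.62 and 1.02 signal at day 7, against 4.88, 2.31 and 3.803 at day 0. In both rows every day 7 library was below every day 0 library, as for Dleu2. The Gm26916 values of 0.454 and 0.116 are at and under the floors of those libraries (0.454 and 0.347). Gm27845, inside the same span, was separated likewise, with its day 7 values all under the floor. Gm27928, also inside it, overlapped, with 3.04, 0.419 and 1.45 signal at day 0 and 1.21, 0.462 and 0.584 at day 7. The share of all rows with such a separation was not counted.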
